A study of Mus musculus with 4 samples.

Results

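The genes described here encode the protein subunits of the cytosolic ribosome. They were chosen by name, as every gene model whose symbol was RPL or RPS followed by digits and, in some, a closing A, X or L, together with RPLP0, RPLP1 and RPLP2. This rule took 68 of the 38588 models in the tables, 40 of the large (60S) subunit and 28 of the small (40S) subunit. Messenger RNA was sequenced from CD4+ T cells of the mouse spleen, sorted from animals labelled C57BL/6-Foxp3tm1Flv/J, which carry a fluorescent reporter at the Foxp3 gene. The RbLoTem subset was CD45RbLo CD44Hi CD62LLo and FoxP3-, the surface state of effector/memory cells. The RbHiTn subset was CD45RbHi CD44Lo CD62LHi and FoxP3-, the surface state of naive cells. Both subsets were stimulated on plate-bound anti-CD3 antibody (2 ug) for 72 h before RNA was taken, so neither is at rest, and no unstimulated cells were sequenced. Each subset had 2 libraries, and the label of one library per subset ended in an unexplained suffix o. Whether a subset's libraries are separate cultures or mice is unstated, and the p-values hold for library-to-library spread alone, which may be technical. In every series of 4 values below, the library without the suffix precedes the library with it within each subset.

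A ribosome holds a fixed number of copies of each of its proteins on a scaffold of ribosomal RNA. The small subunit binds and decodes the messenger RNA, and the large subunit joins the amino acids. Genes for these proteins are among the most strongly transcribed in growing cells. Their messenger RNAs start in a C followed by a run of pyrimidines, the 5′ terminal oligopyrimidine (TOP) tract, through which mTOR and the RNA-binding protein LARP1 control their translation and stability. T cells enlarge and make many ribosomes after their antigen receptor is engaged. Most of these genes also have processed pseudogenes, copies without introns whose reads are hard to tell from those of the parent gene.

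The tables list human symbols and positions although the cells were of mouse. A level here is therefore best compared between libraries for a given gene, and an order between genes is less certain. The libraries held 4258720 and 5873287 exon reads in RbLoTem cells and 5858942 and 3795660 in RbHiTn cells. Of the 9 T cell marker genes on a fixed list, 7 had reads, with a summed level of 216.1 and 229.0 RPKM (reads per kb of exon per 1000000 reads in genes) in RbLoTem libraries and 282.5 and 271.2 RPKM in RbHiTn libraries. CD2 and CD28 were at 0 reads throughout, although T cells express these genes. Of the B cell list, 5 of 7 models had reads, summing to 0.278 and 0.303 RPKM in RbLoTem libraries and to 8.09 and 9.29 RPKM in RbHiTn libraries. CD79A, MS4A1 and BLK were at 0 in RbLoTem cells, and CD79B and CD22 at 0 in all libraries. Of the list for monocytes, macrophages and dendritic cells, 4 of 7 models had reads, with 0.523 and 0.699 RPKM in RbLoTem libraries and 5.19 and 4.69 RPKM in RbHiTn libraries, while CSF1R, LYZ and ITGAX were at 0. Erythroid, NK cell and CD8 T cell markers were at 0 in all libraries. These lists move with the subsets, and their part in the results below was not tested. In bulk RNA, fewer cells of a type and less RNA per cell cannot be told apart.

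Of the 68 models, 65 had at least 1 read. RPL41, RPL39L and RPL3L had none, where a count of 0 allows up to 3 reads, or 0.704 and 0.511 per 1000000 exon reads in RbLoTem libraries and 0.512 and 0.790 in RbHiTn libraries. RPS29 had 1 read in a single RbLoTem library. A model at 0 does not show a silent gene, since mouse reads may not be placed on a human model. The models with reads had a median level of 369 and 381 RPKM in RbLoTem libraries and of 443 and 401 RPKM in RbHiTn libraries. The highest was RPS18 in all 4 libraries.

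The ribosomal protein models took a smaller share of all exon reads in RbLoTem cells. The share was 9.62% and 9.68% in RbLoTem libraries, against 11.5% and 10.8% in RbHiTn libraries, and the subsets did not overlap. Wilson 95% intervals reached at most 0.0312 percentage points to either side and cover counting error only. The mean was 9.65% ± 0.048 in RbLoTem and 11.2% ± 0.51 in RbHiTn cells (SD, n = 2 each), a ratio of 0.864. With 2 libraries against 2, the exact two-sided permutation test gave p = 0.333, the smallest it allows. The small subunit had 3.98% and 3.99% of exon reads in RbLoTem and 4.97% and 4.66% in RbHiTn libraries, a ratio of means of 0.828. The large subunit had 5.64% and 5.69% in RbLoTem and 6.56% and 6.15% in RbHiTn libraries, a ratio of 0.892. Both subunits thus lost share, and the small subunit lost the larger fraction.

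**Figure D1:**
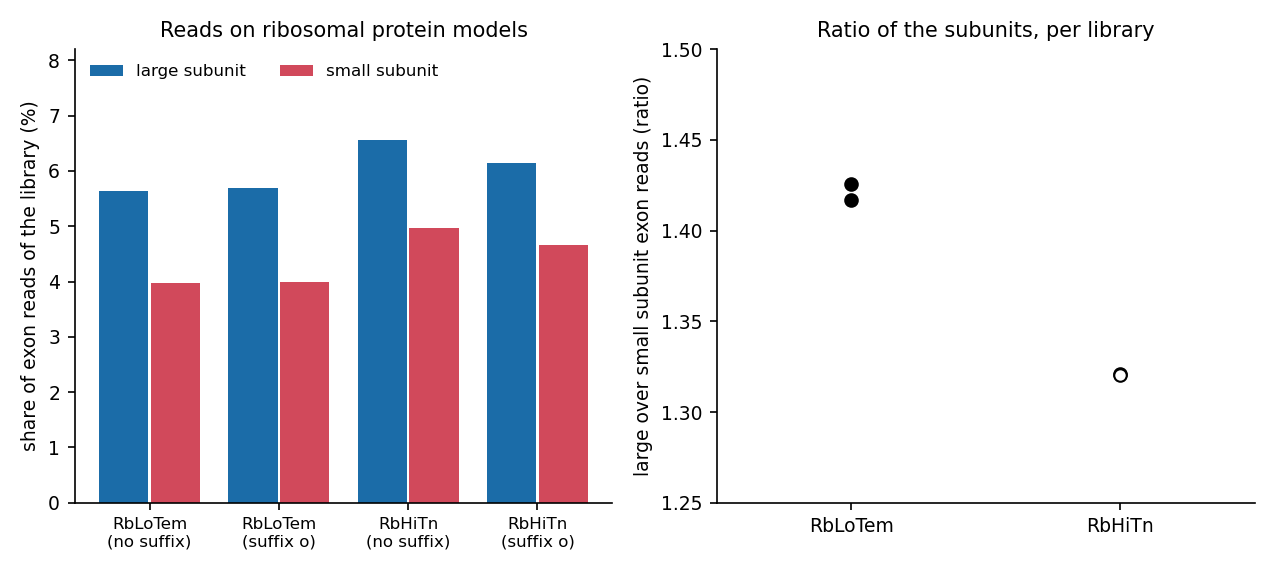
Left, share of exon reads (y axis, percent) on large and small subunit models, with a bar per subunit in each library. Right, large over small subunit reads (y axis starting above 0), with a point per library; RbLoTem libraries have the lower shares and, at 1.42 and 1.43 against 1.32 and 1.32, the higher ratios.

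The subunits were further compared within each library, where depth and scaling cancel, a comparison added after the shares were seen. Reads on large over small subunit models came to 1.42 and 1.43 in RbLoTem libraries, against 1.32 and 1.32 in RbHiTn libraries. The mean ratio was 1.42 ± 0.0063 in RbLoTem cells and 1.32 ± 0.00034 in RbHiTn cells (SD, n = 2 each; exact permutation p = 0.333, the smallest possible). The gap was larger than the spread between libraries of a subset. It was narrower without RPLP0, RPLP1 and RPLP2, with 1.15 and 1.16 in RbLoTem and 1.09 and 1.08 in RbHiTn libraries. With uniquely placed reads alone the ratio was 1.49 and 1.48 in RbLoTem and 1.42 and 1.41 in RbHiTn libraries. The order of the subsets was the same in each of these counts.

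Gene by gene, 49 of the 64 ribosomal protein models with enough reads for a test were lower in RbLoTem cells (edgeR, adjusted p under 0.05 by Benjamini-Hochberg over 6539 models), and none was higher. At an unadjusted p under 0.05 none was higher either, and DESeq2 also called none. Over all models tested 23.6% were lower and 24.3% higher. By subunit, 27 of 37 large and 22 of 27 small subunit models were lower. The median log2 fold change was -0.23 in the large subunit, -0.27 in the small subunit and -0.25 over all members, a fold of 0.838, against -0.01 over all models tested. The quartiles were -0.35 and -0.15 over the members, against -0.33 and 0.30 over all models tested. Abundant genes as a class did not move this way. Of the 382 other models with a mean of at least 100 RPKM, 24.9% were lower and 43.5% higher, with a median of 0.08. DESeq2 called 41 of the 64 lower, beside 15.2% of all models. Counts of reads across exon junctions gave 48 of 62 lower, beside 22.8% of all models.

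**Figure D2:**
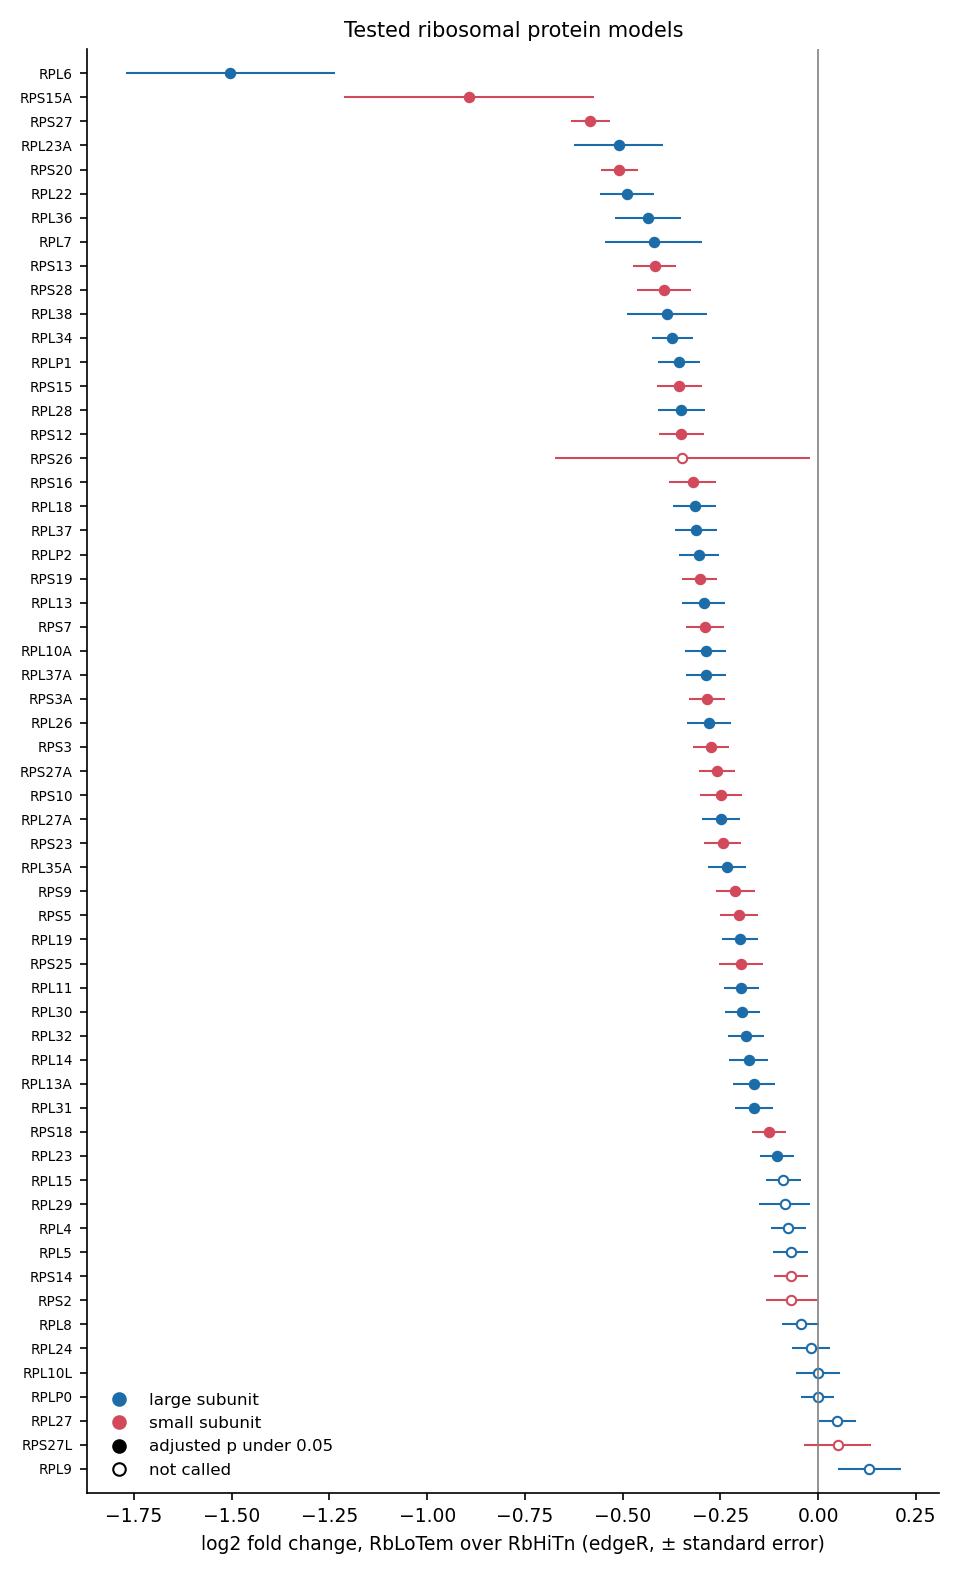
Log2 fold change of 59 tested ribosomal protein models, RbLoTem over RbHiTn, from edgeR on total exon reads with standard errors, ordered by size and coloured by subunit. Of those drawn, filled points were called (45, all to the left of 0) and open points were not (14).

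**Figure D3:**
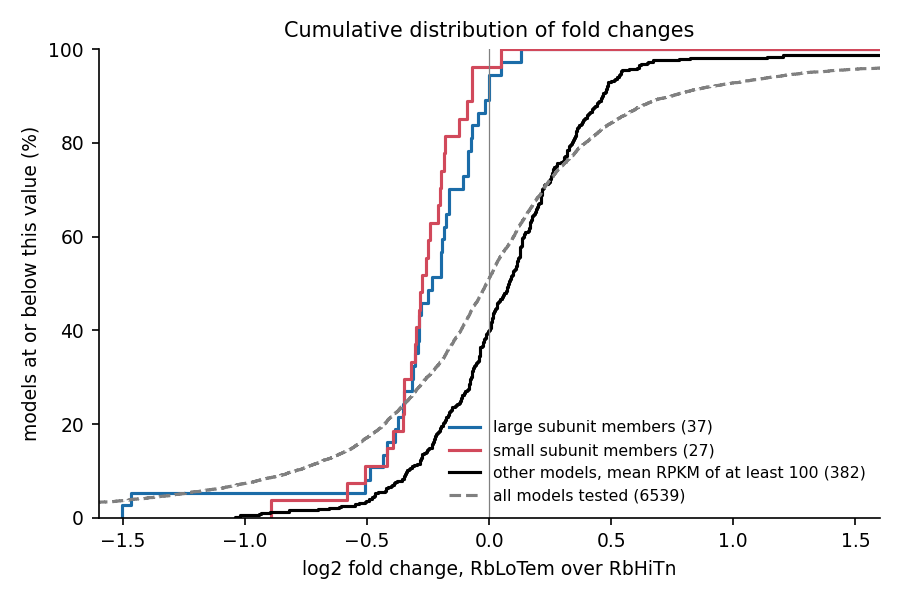
Cumulative share of models (y axis, percent) at or below a log2 fold change (x axis, RbLoTem over RbHiTn) for large subunit, small subunit, other abundant and all tested models. The ribosomal protein curves rise steeply left of 0, at medians of -0.23 and -0.27, while the other abundant models are centred at 0.08.

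The bases around the transcription start were read to show where a TOP tract would lie in members that fell and members that were not called. Windows of 30 bases, from 15 before the start onward, came from RefSeq on mouse build GRCm38.p6, where 49 members had an entry. Capitals mark the longest run of C and T letters where it was at least 7 long. The first 4 windows belong to members that were lower and the last 4 to members that were not called.
Rps27 (chr3:90213634-90213663, minus strand): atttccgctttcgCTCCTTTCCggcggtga
Rpl38 (chr11:114668565-114668594, plus strand): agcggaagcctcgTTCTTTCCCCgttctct
Rps28 (chr17:33824548-33824577, minus strand): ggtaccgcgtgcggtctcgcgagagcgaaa
Rps13 (chr7:116334176-116334205, minus strand): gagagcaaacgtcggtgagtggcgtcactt
Rpl4 (chr9:64173372-64173401, plus strand): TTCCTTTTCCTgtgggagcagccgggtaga
Rplp0 (chr5:115559452-115559481, plus strand): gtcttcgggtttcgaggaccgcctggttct
Rpl5 (chr5:107900513-107900542, plus strand): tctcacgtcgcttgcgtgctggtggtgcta
Rpl27 (chr11:101442230-101442259, plus strand): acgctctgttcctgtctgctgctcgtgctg

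Runs were found within the windows of members of both kinds. They were counted anywhere in the window and need not lie at the start. In Rpl4 the marked run ended before the start, so the counts below do not show a TOP tract. Of the member windows 45.8% held such a run, against 18.6% of all 32851 windows. A run was present in 21 of 35 member genes called lower and in 4 of 11 not called lower. The annotated start can lie some bases from the one the cell uses, so a window without a run says only that these letters are not in it. The motif CCGGAAG, searched on either strand of the promoter entries, was in 33.9% of member entries and 8.86% of all, and GCCATNTT in 23.7% and 6.05%.

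Over the 61 members with at least 10 RPKM in RbHiTn cells, the median size of the log2 difference in RPKM was 0.05 between RbLoTem libraries, 0.10 between RbHiTn libraries and 0.26 between subset means. The RbHiTn library with suffix o was the lower of its pair in 59 of these 61. In RPKM, 54 of the 65 members with a read had both RbLoTem libraries below both RbHiTn libraries, 1 had them above and 10 overlapped, where 31.4% of all models with a read lay below and 28.5% above (37.6% and 34.8% of the models tested). Without the RbHiTn library lacking the suffix, the median over members was -0.19 and 37 were lower, still with 18.5% of all models lower.

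On total exon reads the clearest decrease among small subunit proteins was in RPS27, a zinc finger protein (model at 1:153963235-153964626 of the tables, whose human build is not named). It had 1599 and 1556 RPKM in RbLoTem libraries, against 2477 and 2268 RPKM in RbHiTn libraries. The log2 fold change was -0.58 (SE 0.05, edgeR adjusted p = 1.4e-11). Only 23.6% of its exon reads were placed uniquely, and with those alone the log2 fold change was -0.37. On unique reads RPS20 (-0.49) and RPS13 (-0.43) fell more than RPS27. RPS20, a protein of the 40S head, had 438.6 and 441.6 RPKM in RbLoTem and 645.5 and 613.5 RPKM in RbHiTn libraries (log2 fold change -0.51, SE 0.05, edgeR adjusted p = 1.3e-10). RPS13 had 254.8 and 247.9 RPKM in RbLoTem and 352.3 and 321.5 RPKM in RbHiTn libraries, with nearly every read unique (log2 fold change -0.42, SE 0.05, edgeR adjusted p = 1.5e-07). In RPS27, RPS20 and RPS13 both RbLoTem libraries lay below both RbHiTn libraries, and the RbHiTn libraries differed from each other more than the RbLoTem libraries did. RPS28 had 305.03 and 305.08 RPKM in RbLoTem and 451.3 and 351.7 RPKM in RbHiTn libraries, but only 1.26% of its reads were unique. Its log2 fold change was -0.39 (edgeR adjusted p = 1.8e-05), and neither DESeq2 (-0.38) nor the unique reads (-0.35) gave a call. The RPS28 value was -0.19 without the RbHiTn library lacking the suffix and -0.56 without the one carrying it. RPS15A rested on few reads, with 10 and 28 in RbLoTem and 40 and 28 in RbHiTn libraries (log2 fold change -0.89, SE 0.32, edgeR adjusted p = 0.021). The RPS15A call was lost with DESeq2, and when either RbHiTn library or the RbLoTem library lacking the suffix was left out, and its value lay between -1.55 and -0.53 with a library left out.

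In the large subunit RPL6 had the largest fold change, on few reads. It had 16 and 30 reads in RbLoTem and 65 and 60 reads in RbHiTn libraries (log2 fold change -1.50, SE 0.27, edgeR adjusted p = 1.9e-05). Only 10.53% of RPL6 reads were unique and 4.09% crossed an exon junction, where the median over members with at least 100 reads was 94.4%. It had too few unique reads for a test on them, so a change in the gene and in a copy of it cannot be told apart. RPL22 stood on more reads, although only 22.3% of them were unique. Mice without this gene fail to form alpha-beta T cells in normal number. It had 58.6 and 61.6 RPKM in RbLoTem and 90.1 and 78.9 RPKM in RbHiTn libraries, a log2 fold change of -0.49 (SE 0.07, edgeR adjusted p = 4.6e-07) that was -0.62 with unique reads alone. RPL36, whose reads were 99.7% unique, had 32.4 and 36.2 RPKM in RbLoTem and 47.9 and 45.6 RPKM in RbHiTn libraries (log2 fold change -0.44, edgeR adjusted p = 6.5e-05). RPL38, needed in mouse embryos for translation of Hox messenger RNAs, had 16.2 and 17.1 RPKM in RbLoTem and 23.1 and 20.6 RPKM in RbHiTn libraries. Its log2 fold change was -0.39 (edgeR adjusted p = 0.0020), which DESeq2 did not call (adjusted p = 0.053) and which was lost without the RbHiTn library lacking the suffix.

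The most abundant members changed less. In the small subunit, RPS18 had 2573 and 2686 RPKM in RbLoTem and 2929 and 2838 RPKM in RbHiTn libraries, with a log2 fold change of -0.12 (edgeR adjusted p = 0.019). The RPS18 call was lost when either library lacking the suffix was left out. RPS19, the gene most often mutated in human Diamond-Blackfan anaemia, had 911.3 and 958.9 RPKM in RbLoTem and 1187 and 1133 RPKM in RbHiTn libraries (-0.30, edgeR adjusted p = 1.3e-06). RPS19 thus lay close to the median of its subunit, while RPS18 moved less. RPS3A had a log2 fold change of -0.28 (edgeR adjusted p = 4.7e-06) with 12.5% of reads unique. In the large subunit, RPL11 and RPL5 form a particle with 5S ribosomal RNA, which binds MDM2 when ribosome assembly fails. RPL11 had 1299.8 and 1299.0 RPKM in RbLoTem and 1519 and 1476 RPKM in RbHiTn libraries (-0.20, SE 0.04, edgeR adjusted p = 0.00042). RPL5 had 1798 and 1829 RPKM in RbLoTem and 1959 and 1871 RPKM in RbHiTn libraries, and its log2 fold change of -0.07 was not called (95% interval -0.16 to 0.02). The difference between these partners was not tested. RPL30 was lower by the same amount as RPL11 to the first decimal (-0.19, edgeR adjusted p = 0.00044). RPL23 was at the edge of the threshold (-0.11, edgeR adjusted p = 0.048), and the call was lost in 10 of the 16 other fits, 3 of them with a library left out.

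The stalk of the large subunit, which recruits the elongation factors, held members of both kinds, called and not called. RPLP0 anchors the stalk, and RPLP1 and RPLP2 bind to it as dimers. RPLP0 had 2302 and 2373 RPKM in RbLoTem and 2384 and 2320 RPKM in RbHiTn libraries, so the subsets overlapped, and the 95% interval of its log2 fold change was -0.09 to 0.09. RPLP1 had 203.1 and 192.1 RPKM in RbLoTem and 262.6 and 244.8 RPKM in RbHiTn libraries (log2 fold change -0.36, edgeR adjusted p = 1.8e-06). RPLP2 had 396.0 and 420.4 RPKM in RbLoTem and 514.2 and 500.3 RPKM in RbHiTn libraries (-0.30, edgeR adjusted p = 9.6e-06). The 95% intervals were -0.47 to -0.24 for RPLP1 and -0.41 to -0.20 for RPLP2, and the difference from RPLP0 was not tested. Of RPLP0 reads 48.1% were unique, against nearly all of those of RPLP1 and RPLP2.

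**Figure D4:**
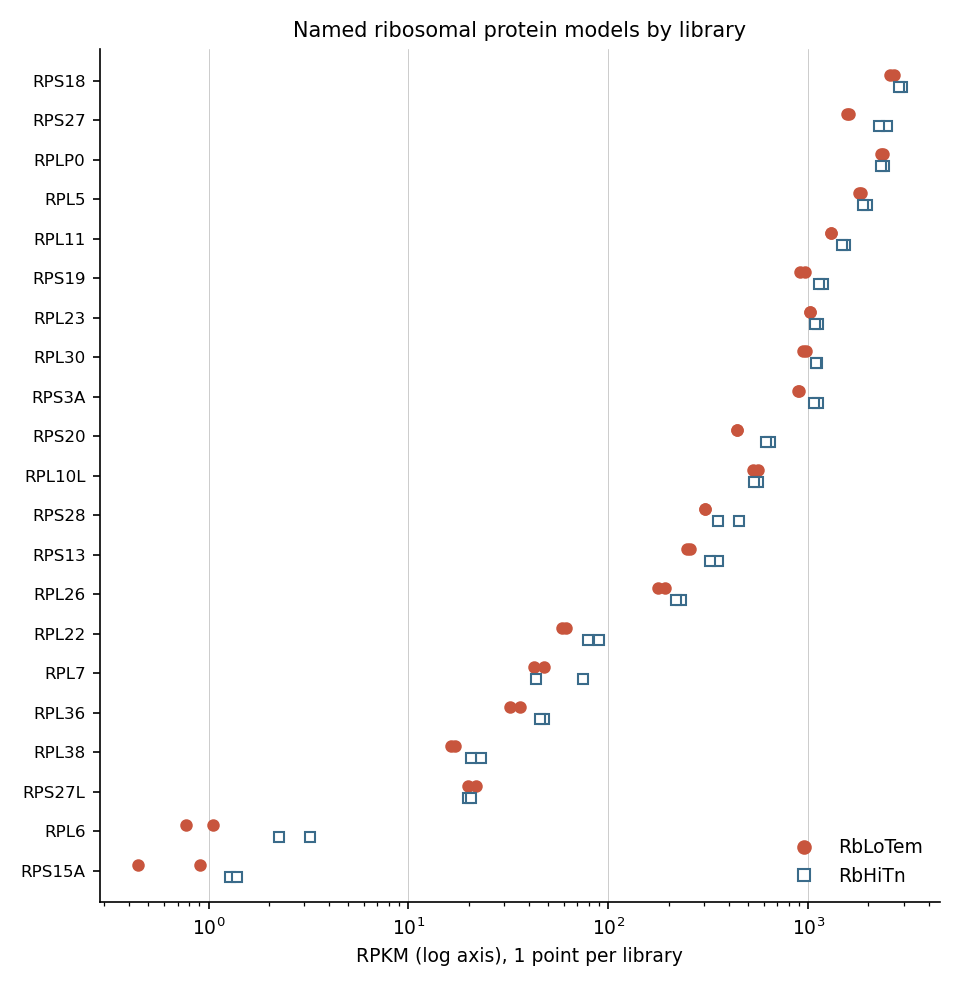
RPKM on a log axis in each library for named members with reads, with RbLoTem points drawn above RbHiTn points in each row. The subsets separate in RPS27, RPS20 and RPS13 and overlap in RPLP0 and RPL10L.

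Among the 15 models not called, RPL15, RPL29, RPL4, RPL5, RPS14, RPS2, RPL8, RPL24, RPL10L and RPLP0 had log2 fold changes between -0.09 and 0.00. RPS26 had -0.35 with a wide error (SE 0.33). Only 1.24% of RPS2 reads crossed an exon junction, so the gene and a copy of it cannot be told apart. RPL27, RPS27L and RPL9 had positive values. RPL27 was the member above RbHiTn in both RbLoTem libraries, with 587.0 and 601.8 RPKM in RbLoTem and 584.9 and 570.6 RPKM in RbHiTn libraries (95% interval of the log2 fold change -0.05 to 0.15). RPL9 had 221.0 and 258.6 RPKM in RbLoTem and 251.3 and 187.4 RPKM in RbHiTn libraries, with 0.599% of reads unique. Its log2 fold change of 0.13 was not called (edgeR adjusted p = 0.18), but it was called higher with no filter on low counts and when either library without a suffix was left out. RPL27, RPS27L and RPL9 were singled out after their values were seen.

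Paralog forms were listed apart. RPS27L, a p53 target in human cells, had 21.8 and 19.9 RPKM in RbLoTem and 19.8 and 20.6 RPKM in RbHiTn libraries (95% interval of the log2 fold change -0.13 to 0.23), all of it from unique reads, while its paralog RPS27 fell. Their difference was not tested. RPL10L, which in mouse testis stands in for the X-linked RPL10, had 529.7 and 559.3 RPKM in RbLoTem and 558.3 and 537.1 RPKM in RbHiTn libraries. Its model has a single exon. RPL10 itself was not analysed here, and whether its reads are counted on RPL10L was not tested. RPL26 had 192.2 and 176.5 RPKM in RbLoTem and 230.7 and 217.9 RPKM in RbHiTn libraries (log2 fold change -0.28, edgeR adjusted p = 0.00012). Only 16.8% of RPL26 reads were unique, and on those the log2 fold change was -0.13 and not called (edgeR adjusted p = 0.23). Its paralog RPL26L1 had no reads. RPL7 had 47.7 and 42.3 RPKM in RbLoTem and 74.3 and 43.5 RPKM in RbHiTn libraries, with 3.81% of reads unique. Its log2 fold change of -0.42 (edgeR adjusted p = 0.0054) was 0.06 without the RbHiTn library lacking the suffix, and the call was also lost without the RbLoTem library carrying it.

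Of the ribosomal protein genes that the name rule leaves out, 3 of 7 tested were lower and none was higher, where 23.6% of all models tested were lower and 24.3% higher. FAU, a ubiquitin-like protein fused to a small subunit protein, had 771 and 814 RPKM in RbLoTem and 946 and 887 RPKM in RbHiTn libraries (-0.20, edgeR adjusted p = 0.00097). RPSA had 121.9 and 135.3 RPKM in RbLoTem and 200.1 and 163.2 RPKM in RbHiTn libraries (-0.49, edgeR adjusted p = 3.6e-07), with 2.20% of reads unique. RPL22L1, the paralog of RPL22, was not called at 349 and 292 RPKM in RbLoTem and 328 and 316 RPKM in RbHiTn libraries (edgeR adjusted p = 0.98). GNB2L1 (RACK1), the scaffold protein of the small subunit, was also not called, with 844 and 878 RPKM in RbLoTem and 897 and 880 RPKM in RbHiTn libraries. RPL36AL and RPL7L1 were not called either.

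Most members were lower whether many or few of their reads were placed uniquely. Members were split by whether at least 50% of their exon reads, summed over libraries, were unique. Of the 47 tested members with a high unique share 36 were lower, with a median log2 fold change of -0.24, and of the 17 with a low share 13 were lower, with a median of -0.28. Within the large subunit the medians were -0.20 for high and -0.42 for low shares, and within the small subunit they were -0.27 for both. In total 34 members had at least 95% unique reads and 8 had under 5%. A test on unique reads alone called 41 of 59 members lower, beside 24.9% of all models, and none higher. Of these, 40 were also called on total reads. The calls lost in the test of unique reads included those of RPL23A (log2 fold change -0.57 on unique reads), RPL7 (-0.40) and RPS28 (-0.35), whose values stayed close to those on total reads, and those of RPL26 and RPS25. RPL6 was not tested on unique reads.

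**Figure D5:**
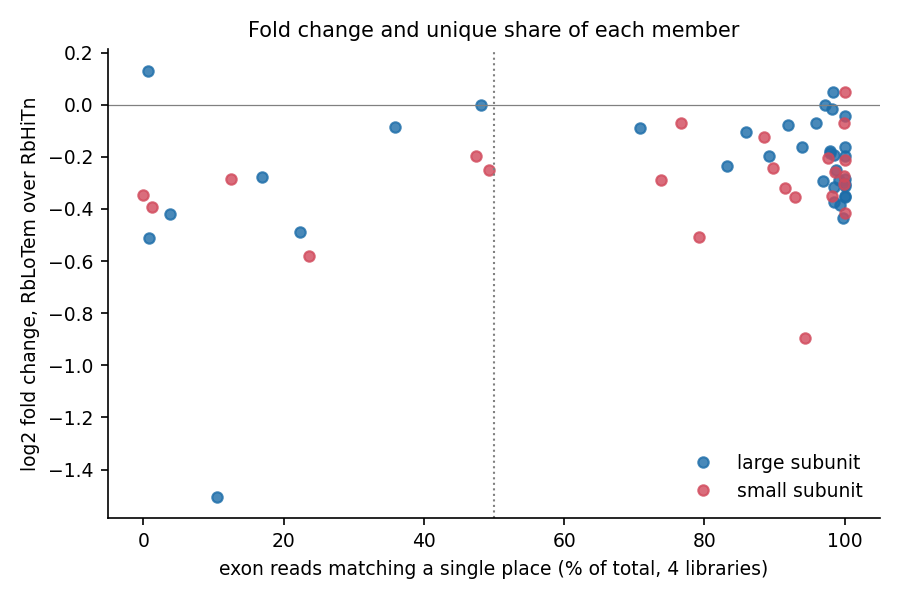
Log2 fold change (RbLoTem over RbHiTn) of 59 tested members against the percentage of their exon reads placed uniquely, coloured by subunit, with a dotted line at 50%. Members with at least 95% unique reads lie between -0.44 and 0.05. RPS15A, with 94.3% unique reads, lies at -0.89, and RPL6, the most negative model, lies at a low unique share (10.53%).

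Other genes of ribosome production and its control were both higher and lower, and the counts for these lists are descriptions. Among 25 tested assembly factors 8 were higher and 1 lower in RbLoTem cells, with a median log2 fold change of 0.02, where 24.3% of all models tested were higher and 23.6% lower. Those higher included BYSL (0.49, edgeR adjusted p = 1.8e-06) and NOB1 (0.45, edgeR adjusted p = 0.0015), both needed to mature the small subunit, and SBDS (0.42, edgeR adjusted p = 0.0034), which releases a factor from the large subunit. MDN1, the giant ATPase of large subunit assembly, was lower (-0.61, edgeR adjusted p = 1.4e-06). Of 19 tested genes of mTOR, MYC and LARP1 control, 8 were higher and 3 lower (24.3% and 23.6% of all models tested), with a median of 0.11. EIF4EBP1, an mTOR target that restrains EIF4E, had 13.0 and 11.4 RPKM in RbLoTem and 5.15 and 4.45 RPKM in RbHiTn libraries (log2 fold change 1.32, SE 0.23, edgeR adjusted p = 1.7e-05). Those lower were MAX (-0.91, edgeR adjusted p = 6.7e-13), the partner of MYC, MXD4 (-1.17, edgeR adjusted p = 0.0022), which competes with MYC for MAX, and RHEB (-0.59, edgeR adjusted p = 2.0e-07), which activates mTOR. MXD4 was at a low level, with 0.33 and 0.53 RPKM in RbLoTem and 0.89 and 1.18 RPKM in RbHiTn libraries.

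Of 16 genes, mostly translation factors, whose messenger RNAs also carry a TOP tract, 6 were lower and 3 higher, with a median of -0.02. The shares over all models tested were 23.6% lower and 24.3% higher. PABPC1, the poly(A)-binding protein, was lower at 1503 and 1519 RPKM in RbLoTem and 1945 and 1894 RPKM in RbHiTn libraries (log2 fold change -0.34, edgeR adjusted p = 5.1e-08). EIF3F (-0.31), EEF1B2 (-0.23) and NACA (-0.22) were also lower. Of 14 tested genes of RNA polymerases I and III, RRN3 (0.93) and POLR3D (0.52) were higher and POLR3GL (-1.47) and MAF1 (-0.72), a repressor of polymerase III, were lower, both shares being below those over all models. Of 11 tested genes of ribosomal protein quality control and p53 sensing 3 were higher, a share near the 24.3% of all models. These were MDM2 (0.83), NEMF (0.37) and RNF10 (0.17). MDM2 was at a low level, with 1.85 and 1.52 RPKM in RbLoTem and 0.86 and 1.04 RPKM in RbHiTn libraries. Among 44 tested mitochondrial ribosomal proteins 8 were lower and 1 higher, with a median of -0.06, and the share lower was not above the 23.6% of all models. MRPL10 had the largest decrease (-1.90, SE 0.55, edgeR adjusted p = 0.0046), at a low level. It had 0.35 and 0.19 RPKM in RbLoTem and 1.00 and 0.97 RPKM in RbHiTn libraries.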

How the data were processed

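Per the labels, 2 libraries each of RbLoTem and RbHiTn cells were sequenced. The study's methods name Trimmomatic, TopHat (mm10, Gencode vM4), htseq-count, R and DESeq2, without versions. The read counts and RPKM values deposited by the authors list models with human symbols and positions. For these tables the program and any use of strand were not given in the sources used here. Deposited RPKM equalled total exon reads per kb of exon per 1000000 reads in genes, within 1% for every value above 0.

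The main test was edgeR 4.0.16 on total exon reads, under R 4.3.3 (TMM factors 0.991 to 1.013, filterByExpr, no block, adjusted p threshold 0.05 over 6539 models). The SE is the log2 fold change over the square root of F. Alternatives were limma 3.58.1 on log2 RPKM with 0.1 or 1 added, DESeq2 1.42.0, further scalings, no filter, gene, unique and junction reads, a block on the suffix, and each library left out. Libraries of a subset differed beyond counting noise (chi-square per degree of freedom 2.07 and 2.06). The script was tested on simulated data.

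The members and lists were chosen with earlier results of these data known. Named genes were the 10 largest called decreases without overlap of the subsets, the 5 highest members per subunit, paralogs, genes outside the name rule, and up to 4 per list, taken by the size of the change. Others named were picked after their values were seen. Junction reads, the ratio of subunits and the abundant models were added after seeing the data. Of 80 mouse genes fitting the name rule, 66 have a model, and the other 14 were not analysed here. A few genes are not reported here by name and are absent from the plots of single genes, while counts, medians and shares include them.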

Additional observations from a re-analysis of the deposited data

How the results depend on the processing

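No setting turned the direction of the ribosomal protein models as a set. Calls lower among them were 41 with DESeq2, 45 and 44 with limma, 48 with RLE and with upper-quartile scaling, 51 on totals alone, 49 when members were kept out of the scaling, 44 on gene reads and 48 with no filter, and 37 to 50 with a library left out. Calls higher were 0, but 1 (RPL9) with no filter and 0 to 1 with a library left out. The median log2 fold change was -0.31 to -0.19 with a library left out, and the RPL7 fold change was -0.72 to 0.055, at 0.055 without RbHiTn replicate 1. DESeq2 called 991 models lower and 1116 higher over all genes, against 1545 and 1592 with edgeR. The log2 ratio of large over small subunit reads was 0.11, against 0.071 with unique reads, 0.086 without the stalk proteins, 0.061 with members of high unique share and 0.10 to 0.11 with a library left out. All of these were positive. Scaling moved the median of all models by less than the smallest called change. A replicate block on the label suffix gave 47 lower among the members, and 1562 higher and 1530 lower over all models. Libraries share only a suffix of unstated meaning, and their deviations did not go together (r = -0.09 over 3843 models). This correlation cannot decide whether libraries with the same suffix are paired, since noise could hide a small shared effect. With 2 libraries per subset, changes of a few percent in weakly counted or rarely unique models are beyond the reach of these data. Larger changes in such models also depended on the fit. DESeq2 did not call RPL7, RPL23A, RPS28 or RPS15A, although it called others, such as RPL6 and RPS27.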
